A study of Mus musculus with 6 samples.

Results

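Lrtm1, Lrtm2, Lrrc2, Lrrc10 and Lrrc39 are 5 genes of leucine-rich repeat proteins, most of them known from striated muscle, and they were followed in the hearts of pups with and without an activated human SRY transgene. They were found by their gene symbol in the array table, where 8 probes carried 1 of the 5 symbols out of 25697 probes with 18138 symbols in all. The genes were chosen with the difference between these hearts already known, Lrtm1 for its large decrease, so the differences given for them are a description and not a test.

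A leucine-rich repeat is a short leucine-bearing unit that, when stacked, folds into a curved surface on which other proteins dock. Lrtm1 and Lrtm2 encode paralogous membrane proteins with such repeats outside the cell and a single membrane-spanning segment, the former found in striated muscle and the latter mainly in the nervous system. Lrrc10, Lrrc39 and Lrrc2 encode proteins inside the cell. Lrrc10 is specific to cardiac myocytes, where its product binds actin and alpha-actinin near the Z-disc, and its loss leads to dilated cardiomyopathy. Lrrc39, also called myomasp, encodes a protein of the sarcomeric M-band that binds myosin heavy chain, and Lrrc2 is expressed in heart and skeletal muscle.

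Total RNA came from the hearts of 3 hSRY-ON and 3 hSRY-OFF male mice of the FVB strain (FVB/N in the study's methods) at postnatal day 6, and each RNA was hybridized to 1 single-colour bead array. In hSRY-ON mice the responder transgene Signalox-hSRY, a single copy at the H11 locus, had been recombined in the early embryo by Cre protein carried over from the oocyte of a Ddx4-Cre mother, so that the ubiquitous CAG promoter drove FLAG-tagged human SRY together with EGFP. The hSRY-ON mice taken for the arrays did not themselves carry Ddx4-Cre. The methods define hSRY-OFF as carrying the unrecombined transgene, which expresses DsRed2, whereas elsewhere the study describes controls with Ddx4-Cre only or with no transgene, so the exact control genotype stays uncertain.

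Between 47.2% and 51.3% of the probes were above background on each array (detection p-value under 0.05 against the negative-control beads), and hSRY-OFF replicate 3 was the dimmest of them (mean intensity 631, the others 723 to 939). The neqc function of limma removed the background, brought the arrays to 1 distribution and gave log2 values. The human transgene was not measured here, and the 1 probe of mouse Sry was above background on 0 arrays, so the array does not check the labels. A probe above background on at least 3 of the 6 arrays was compared between the groups, and a positive log2 fold change means a higher level with SRY. All 15 measured genes of a list of cardiac myocyte markers passed this filter.

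Of the 8 probes of the 5 genes, 6 passed the filter on dim probes, those of Lrtm1, Lrrc10 and Lrrc39, and the single probes of Lrtm2 and Lrrc2 did not. Lrtm1 and Lrrc39 were lower in the hSRY-ON hearts with each of their probes, by 41.1-fold and 13.4-fold for Lrtm1 and by 2.65-fold to 4.02-fold for Lrrc39, while Lrrc10 was 2.30-fold higher. These folds are on the background-corrected scale, and that of 41.1 is against hSRY-ON hearts of which 2 were not above background, so its size depends on the background correction (the deposited means differ 11.3-fold). The hSRY-ON hearts did not overlap with the hSRY-OFF hearts in any of the 6 probes, where 45.2% of the 12970 tested probes showed no overlap, 23.6% higher and 21.6% lower. All 6 also passed a Benjamini-Hochberg adjusted p-value of 0.05 in limma's fit over the whole array, 5 of them lower and 1 higher. Of the tested probes 27.5% passed, 13.7% lower and 13.8% higher, 4.52% were lower by at least 2-fold, and since the genes were chosen on this contrast their count is not read against these shares.

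**Figure D1:**
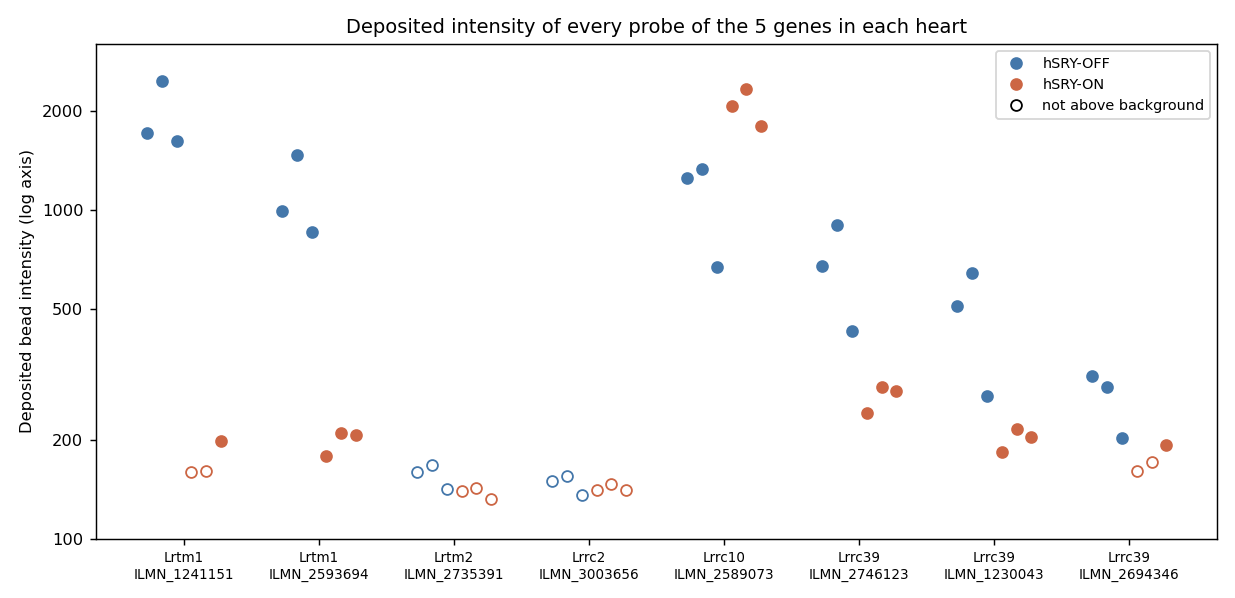
Deposited bead intensity (y axis, log scale, no background removed) of the 8 probes of the 5 genes (x axis) in each of the 3 hSRY-OFF and 3 hSRY-ON hearts, with open circles for hearts where the probe was not above background. The Lrtm1 probes drop from at least 856 to at most 209, the Lrrc10 probe is higher in hSRY-ON, and the Lrtm2 and Lrrc2 probes lie between 132 and 168 in every heart.

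The promoter sequences of the 3 genes that were measured above background are shown because these genes differed in opposite directions in the same hearts. Each runs from 250 bases before to 50 bases after the annotated start of the gene, in the mouse build GRCm38.p6 and on the coding strand, as RefSeq gives it. Capitals mark matches to any of 8 motifs that were searched on both strands. SRY is known to bind AACAAT and SOX proteins such runs as AACAAAG. The motif AGATAA is that of GATA factors, and estrogen-related receptors bind AAGGTCA. The core promoter motif is TATAAA, and Nkx2-5 binds TNAAGTG. The CArG box of SRF and the MEF2 site were the last of the 8.
Lrtm1, chr14:29017958-29018257, plus strand: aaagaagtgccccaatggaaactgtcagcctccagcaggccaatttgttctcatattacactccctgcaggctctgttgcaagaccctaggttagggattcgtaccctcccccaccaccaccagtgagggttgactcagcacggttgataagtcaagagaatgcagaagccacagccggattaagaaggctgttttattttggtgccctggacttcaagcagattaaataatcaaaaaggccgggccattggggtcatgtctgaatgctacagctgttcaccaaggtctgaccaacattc
Lrrc10, chr10:117045091-117045390, plus strand: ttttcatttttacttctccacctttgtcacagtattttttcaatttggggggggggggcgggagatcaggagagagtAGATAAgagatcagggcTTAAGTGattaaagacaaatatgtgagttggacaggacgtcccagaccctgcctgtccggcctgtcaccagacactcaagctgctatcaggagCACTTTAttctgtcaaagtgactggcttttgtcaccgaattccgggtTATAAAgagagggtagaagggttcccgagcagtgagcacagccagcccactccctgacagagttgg
Lrrc39, chr3:116562733-116563032, plus strand: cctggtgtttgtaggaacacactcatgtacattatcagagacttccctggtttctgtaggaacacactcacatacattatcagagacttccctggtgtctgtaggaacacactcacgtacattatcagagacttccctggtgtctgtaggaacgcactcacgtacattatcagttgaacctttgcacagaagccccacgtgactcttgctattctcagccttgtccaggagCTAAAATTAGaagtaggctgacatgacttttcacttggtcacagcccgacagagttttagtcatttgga

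The Lrrc10 promoter held AGATAA at position -173 from the start site, TNAAGTG at -156 on the coding strand and at -63 on the other strand, and TATAAA at -16. Of 32851 mouse promoters of the same length, 11.2% held AGATAA, 11.5% TNAAGTG and 13.6% TATAAA. The Lrrc39 promoter held 1 MEF2 site, CTAAAATTAG, at -19, a motif present in 3.19% of all promoters. None of the 8 motifs was present in this window of Lrtm1, which also lacked the SRY and SOX motifs AACAAT (10.7% of all promoters) and AACAAAG (5.85%), as did the windows of the other 4 genes. Only the stated forms were searched, and runs that differ from them by a base were not marked. The Lrtm1 window holds such runs, TGATAA and, on the other strand, AACAAA, and the Lrrc39 window holds TGATAA on the other strand. The Lrrc2 window held TATAAA on the other strand, at -64, and both Lrtm2 windows held AGATAA. The remaining motifs, AAGGTCA (4.72% of all promoters) and the CArG box (1.63%), were in none of the 6 windows of the 5 genes. A match is only a run of letters, and the windows say nothing of binding in these hearts.

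Lrtm1, the muscle membrane protein gene, was bright in every hSRY-OFF heart and near background in every hSRY-ON heart. Its brighter probe, ILMN_1241151, had deposited intensities of 1714, 2475 and 1627 in hSRY-OFF replicates 1, 2 and 3, and of 159, 160 and 198 in the hSRY-ON hearts in that order, used throughout. Only hSRY-ON replicate 3 was above background for this probe, with detection p-values of 0.147 and 0.174 in the other 2. After normalization these were 10.75 ± 0.29 (SD, n = 3) without SRY and 5.39 ± 0.70 (SD, n = 3) with it on the log2 scale, a log2 fold change of -5.36 with a standard error of 0.33.

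The second Lrtm1 probe, ILMN_2593694, was above background in all 6 hearts. Its deposited intensities were 993, 1469 and 856 in hSRY-OFF and 178, 209 and 207 in the hSRY-ON replicates. Normalization gave 9.84 ± 0.29 (SD, n = 3) for hSRY-OFF and 6.10 ± 0.40 (SD, n = 3) for hSRY-ON on the log2 scale, a log2 fold change of -3.74 (standard error 0.23). Even the closest hearts of the 2 groups were 18.7-fold apart with the first probe and 8.69-fold with the second.

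The size of the Lrtm1 decrease depended on how the background was treated, and the hSRY-ON values lay close to it. The ratio of the mean deposited intensities, with no background removed, was 11.3 for the first probe and 5.58 for the second. When the intensities were quantile normalized without background correction, the log2 fold changes were -3.38 and -2.35. RefSeq lists a single transcript of Lrtm1, and the sequences of the 2 probes were not used here, so what sets the probes apart was not tested.

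The spread within groups was also unequal for Lrtm1. Among the hSRY-ON hearts, replicate 3 lay 0.80 above the group mean on the log2 scale for the first probe, and replicates 1 and 2 lay below it by 0.38 and 0.42. The pooled SD of this probe was 0.53, higher than that of 98.4% of the 1968 tested probes of like mean brightness, whose median was 0.20. Like brightness was taken from the mean over all 6 hearts, which matches neither group of this probe, at 10.75 and 5.39. The wider SD, 0.70, was that of the hSRY-ON hearts, of which 2 were not above background. For the second probe the pooled SD was 0.35, against a median of 0.21. Both pooled SDs are small beside the log2 fold changes of -5.36 and -3.74.

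Lrtm2, the paralog of Lrtm1, was not measurable in these hearts. Its probe had intensities of 159, 168 and 142 in hSRY-OFF and of 140, 143 and 132 in hSRY-ON. None of the 6 values was above background, with detection p-values between 0.271 and 0.947. The probe had no level that could be compared, and neither presence nor absence of the transcript in heart follows from it.

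Lrrc2, though known from heart muscle, was likewise above background on none of the 6 arrays. Its only probe, ILMN_3003656, gave 150, 155 and 136 in hSRY-OFF and 141, 147 and 141 in hSRY-ON. Its detection p-values ranged from 0.481 to 0.853, which places the probe amid the negative-control beads. RefSeq lists 3 transcripts of Lrrc2, and whether the probe matches the form that is made in heart was not tested.

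Lrrc10, the cardiac Z-disc gene, was the only one of the measured genes with a higher level in the hSRY-ON hearts. Its deposited intensities were 1247, 1332 and 670 in hSRY-OFF and 2077, 2342 and 1795 in hSRY-ON, all above background. The lowest value came from the dimmest array, and after normalization hSRY-OFF replicate 3, at 9.53, lay closer to replicates 1 and 2, at 9.89 and 9.90. The group means of the log2 values were 9.77 ± 0.21 (SD, n = 3) and 10.98 ± 0.15 (SD, n = 3), a log2 fold change of 1.20 (standard error 0.15). The lowest hSRY-ON heart was 1.87-fold above the highest hSRY-OFF heart, and 3.55% of the tested probes had a larger increase.

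Lrrc39, which encodes the M-band protein myomasp, was lower in hSRY-ON with all 3 of its probes. The brightest, ILMN_2746123, was above background in all hearts and gave 675, 898 and 428 in hSRY-OFF and 241, 289 and 282 in hSRY-ON. On the normalized log2 scale this was 8.93 ± 0.28 (SD, n = 3) against 7.18 ± 0.25 (SD, n = 3), a log2 fold change of -1.74 (standard error 0.19).

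Probe ILMN_1230043 of Lrrc39 was also above background in all hearts, at 509, 645 and 271 in hSRY-OFF and at 184, 216 and 204 in hSRY-ON. Its log2 fold change was -2.01 (standard error 0.27), with the widest spread among the hSRY-OFF hearts, 8.18 ± 0.49 (SD, n = 3). The dimmest probe, ILMN_2694346, gave 312, 290 and 203 in hSRY-OFF and 161, 171 and 192 in hSRY-ON, and only replicate 3 of hSRY-ON was above background. Its log2 fold change of -1.41 (standard error 0.26) came to only -0.49 when no background was removed, against -1.14 and -1.04 for the other 2 probes. The 3 probes thus had the same sign and different sizes, and RefSeq lists 7 transcripts of Lrrc39.

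**Figure D2:**
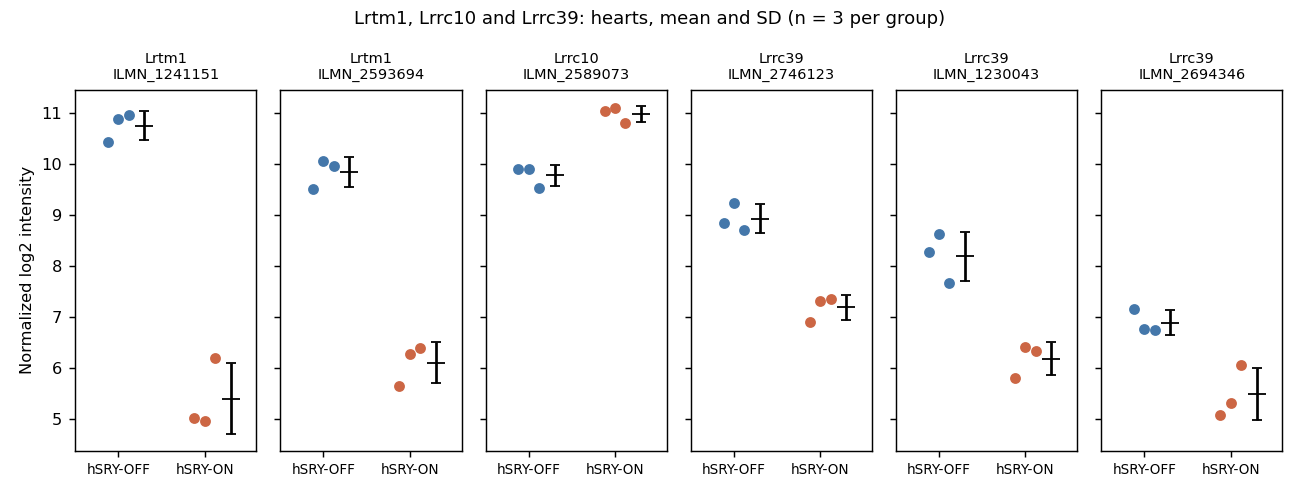
Normalized log2 intensity (y axis) of the 6 probes of Lrtm1, Lrrc10 and Lrrc39 in each heart (coloured points, 3 hSRY-OFF and 3 hSRY-ON), with the mean and SD of each group in black. The groups are apart in every panel, downward in hSRY-ON for Lrtm1 and Lrrc39 and upward for Lrrc10.

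The hearts of one group did not deviate in the same way for every gene. Among the hSRY-ON hearts, replicate 1 was the lowest for the second Lrtm1 probe and for all 3 Lrrc39 probes, by 0.28 to 0.45 below the group mean on the log2 scale. Replicate 3 was the highest hSRY-ON heart for both Lrtm1 probes and for 2 of the 3 Lrrc39 probes, and the lowest for Lrrc10, at 0.17 below the mean. With 3 hearts a group these deviations are only a description.

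The genes whose profile over the 6 hearts was most like that of Lrtm1 were Fbp2, Asb10, Rpl3l, Itgb6 and Ckmt2. Likeness was the root mean square difference between the log2 profile of a gene and that of the brighter Lrtm1 probe, after the hSRY-OFF mean of each was subtracted, over 9659 other genes. Fbp2, the muscle fructose bisphosphatase, differed by 1.08, Asb10, a ubiquitin ligase adaptor, by 1.10, and Rpl3l, the striated muscle paralog of a ribosomal protein, by 1.15. Itgb6, an integrin subunit, differed by 1.28 and Ckmt2, the sarcomeric mitochondrial creatine kinase, by 1.29. The log2 fold changes of the first 4 were -3.74 to -3.98, a smaller decrease than that of the brighter Lrtm1 probe, and that of Ckmt2 was -7.09, a larger one. Of the hSRY-ON hearts, Fbp2 was above background in 2, and Asb10 and Itgb6 in 1 each. Without background correction the log2 fold changes of Fbp2, Asb10 and Itgb6 were -2.28, -2.08 and -1.99, so their sizes too depend on that correction. By root mean square difference the Lrrc39 probes differed from Lrtm1 by 2.43 to 2.82 and Lrrc10 by 4.68. With the hearts in 2 groups, this likeness mostly restates the difference between the groups.

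Lrtm1 lies inside the much longer gene Cacna2d3, which encodes an auxiliary subunit of voltage-gated calcium channels, and its nearest neighbours are Wnt5a and Selenok (Selk on the array). None of these genes passed the test in the direction of Lrtm1. The Cacna2d3 probe was above background in no hSRY-OFF heart and in all hSRY-ON hearts, with normalized log2 values of 4.80, 5.01 and 4.73 against 5.65, 5.49 and 5.82. It rose at least 1.17-fold (limma, adjusted p = 0.00529), a bound on the background-corrected scale that takes the dim hearts at the lowest signal above background. The probe passed the filter through the hSRY-ON hearts alone, so its adjusted p-value is a description and not a test. Without background correction its log2 fold change was 0.24. Without normalization between arrays the rise of Cacna2d3 did not pass (0.68, adjusted p = 0.124), where its standard error was 0.30 against 0.14.

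Wnt5a, a secreted Wnt ligand, rose with both of its probes. The brighter was 8.11, 8.20 and 8.43 in hSRY-OFF and 10.23, 10.10 and 9.95 in hSRY-ON, which amounts to 1.84 on the log2 scale (standard error 0.14, limma's adjusted p = 0.000211). The dimmer Wnt5a probe exceeded background in hSRY-ON only and was at least 1.88-fold higher on the background-corrected scale (limma's adjusted p = 0.0002). It passed the filter through that group alone, so this adjusted p-value too is only a description. Its log2 fold change was 0.43 without background correction and 0.75 with normexp and an offset of 50, against 1.43. Selk, a selenoprotein gene of the endoplasmic reticulum, had a log2 fold change of -0.33 (standard error 0.33) that did not pass (adjusted p = 0.486 from limma). It passed without hSRY-OFF replicate 3, at -0.72 (adjusted p = 0.049 from limma).

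**Figure D3:**
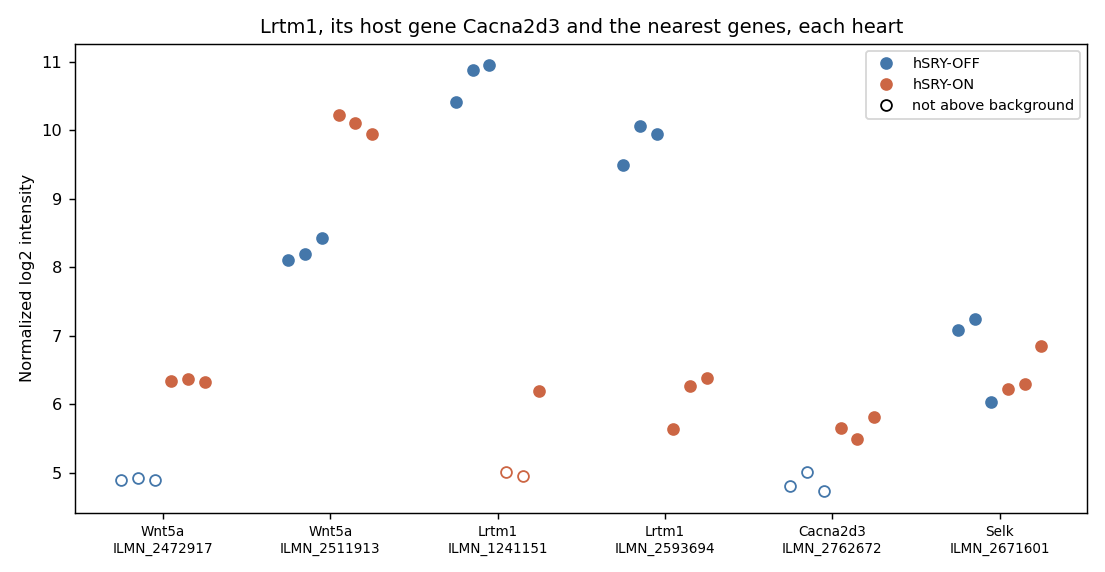
Normalized log2 intensity (y axis) in each heart for Wnt5a (2 probes), Lrtm1 (2 probes), its host gene Cacna2d3 and Selk, with open circles where the probe was not above background. Lrtm1 is lower in hSRY-ON, Wnt5a and Cacna2d3 are higher, and the groups overlap for Selk.

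Of the neighbours of the other genes 1 passed the test. Best3 and Cct2, on either side of Lrrc10, were not above background in enough hearts to be compared. Beside Lrrc39, Dbt, which encodes a subunit of the branched-chain alpha-keto acid dehydrogenase, fell by 0.50 on the log2 scale with its only tested probe (standard error 0.12, adjusted p = 0.0227 from limma). That call was lost without normalization between arrays, at -0.62 with a standard error of 0.30 (adjusted p = 0.17). It was also lost with replicate numbers fitted as a block (0.0621), and in 4 of the 6 fits that omit a heart, namely 1 or 2 of hSRY-OFF and 2 or 3 of hSRY-ON (0.0537 to 0.0648). Sass6 beside Lrrc39 and Tdgf1 and Rtp3 beside Lrrc2 were above background in no heart. Lrtm2 lies inside Cacna2d4, which like Trmt13 at Lrrc39 was not matched to an array symbol. Its neighbours Adipor2 and Dcp1b had log2 fold changes of 0.65 (adjusted p = 0.0555 from limma) and, over 2 probes, of 0.27 and 0.34 (adjusted p of 0.346 and 0.203), none of which passed. Adipor2 passed under 8 of the 10 alternatives that kept all hearts.

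The known partners and regulators of these proteins were followed through 15 genes, of which 13 were tested with their brightest probe. In hSRY-ON 2 rose and 4 fell, 15.4% and 30.8%, against 14.9% and 13.9% of the 9660 tested genes, 28.8% of which passed in either direction, and the median log2 fold change was -0.37 against 0.00 over all genes. Myom2, an M-band gene, was above background on no array, and Cacna1c, the pore subunit of the L-type calcium channel, on fewer than 3.

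Around Lrrc10, the cardiac transcription factor gene Nkx2-5 rose, from 10.61, 10.73 and 10.55 in hSRY-OFF to 11.25, 11.38 and 11.29 in hSRY-ON, without overlap. The rise was 0.68 on the log2 scale (standard error 0.12, limma's adjusted p = 0.00493). It did not pass without normalization between arrays (0.60, adjusted p = 0.198), where the standard error was 0.30. Gata4, another cardiac factor, was at -0.37 (adjusted p = 0.256) and Srf, the serum response factor gene, at -0.15 (adjusted p = 0.528), and neither passed. Gata4 passed without hSRY-ON replicate 3, at -0.60. Of the cytoskeletal partners, Actn2 (alpha-actinin) was at 0.13 and Actc1 (cardiac actin) at -0.20, neither passing, and Acta1, the skeletal actin gene, fell by 3.25 (standard error 0.28, adjusted p = 0.000389 from limma).

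Around Lrrc39, the myosin heavy chain genes that encode its binding partners went opposite ways. Myh7, the slow and fetal isoform, rose by 2.94 (standard error 0.18, adjusted p = 8.25e-05 from limma), and Myh6, the adult cardiac isoform, fell by 0.51 (standard error 0.12, adjusted p = 0.0185 from limma). The Myh6 call was lost without normalization between arrays, at -0.70 with a standard error of 0.30 (adjusted p = 0.108). It was also lost with replicate numbers fitted as a block (0.053), and on omitting any heart but replicate 3 of either group (0.0504 to 0.0636). Myom1, which encodes the M-band protein myomesin, was at -0.37 and did not pass (adjusted p = 0.107), though it passed without background correction (0.0467) and with an intensity trend (0.0286).

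For Lrrc2, which has been tied to mitochondria and PGC-1, the regulators Ppargc1b and Esrra fell by 1.35 and 0.90 (standard errors 0.21 and 0.13, adjusted p of 0.00365 and 0.00271 from limma). Ppargc1a, which encodes PGC-1 alpha, was at -0.63 (standard error 0.34) and did not pass (adjusted p = 0.209). Fgfr1, a growth factor receptor gene tied to Lrtm1 in muscle precursor cells, was at 0.09 (standard error 0.25, adjusted p = 0.809 from limma). The sign of Fgfr1 was not stable, at -0.03 without normalization between arrays and -0.17 without hSRY-OFF replicate 2.

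**Figure D4:**
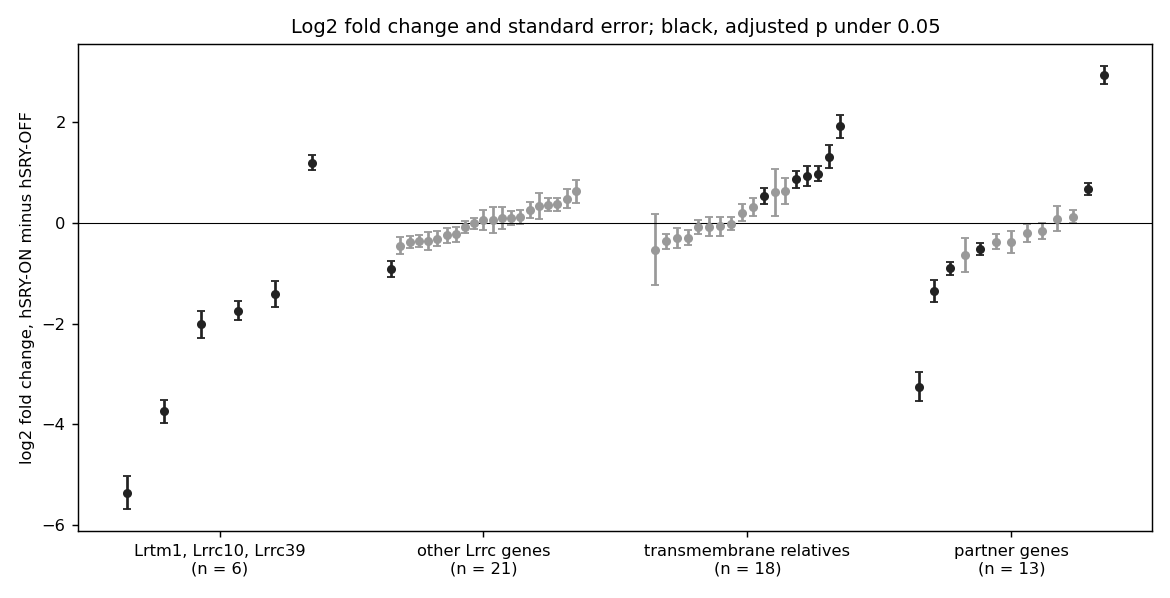
Log2 fold change, hSRY-ON minus hSRY-OFF (y axis), with its standard error, for the 6 probes of Lrtm1, Lrrc10 and Lrrc39 and for the brightest tested probe of the 21 other Lrrc genes, the 18 transmembrane relatives and the 13 partner genes, ordered within each set. Black points passed an adjusted p-value of 0.05, which 1 of the other Lrrc genes and 6 of the transmembrane relatives did.

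The other genes named Lrrc, taken by their symbol alone and whatever their role in muscle, seldom passed the test. Of 46 on the array, 19 were above background on no array and 6 on too few, and 21 were tested. Of these 1 fell (4.76%) and none rose in limma after adjustment, against 13.9% and 14.9% of all tested genes. At an unadjusted p-value under 0.05 in limma 4 were lower and 4 higher, where 5228 of the 12970 tested probes passed in either direction. The median log2 fold change of these 21 genes was 0.06. The gene that fell was Lrrc1, whose product belongs to the scaffold proteins of cell polarity, at 9.61, 9.24 and 9.68 in hSRY-OFF and 8.42, 8.63 and 8.73 in hSRY-ON, which is -0.92 on the log2 scale (standard error 0.16, limma's adjusted p = 0.00523). The number that rose came to 2 without background correction, 1 with another background model and 3 when arrays were scaled to their detected probes. The number that fell came to 3 with scaling in the manner of TCC, 3 when detection on all 6 arrays was required and 2 with detection at 0.01 or without hSRY-ON replicate 1.

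The transmembrane and secreted relatives of Lrtm1 and Lrtm2, many of which act in neurons, included none that passed the test in the direction of Lrtm1. Of 43 on the array, 20 were above background on no array and 5 on too few, among them all 4 Lrrtm genes in the first group, and 18 were tested. Of these 6 rose (33.3%) and none fell, against 14.9% and 13.9% of all tested genes. At an unadjusted p-value under 0.05 in limma 7 were higher and 1 lower, where 5228 of the 12970 tested probes passed in either direction. The median log2 fold change of these 18 genes was 0.27. Without the filter on dim probes 2 of the relatives fell, and without hSRY-ON replicate 1 or 3 the number that rose was 3. Lrrn3 and Slitrk5, among the 6 that rose, were above background in hSRY-ON only. They were tested only because of that group, so the 33.3% is not read against the share of all genes.

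Slit3, a secreted guidance ligand, had the largest of these increases with the processing used here. It went from 5.69, 6.26 and 6.49 in hSRY-OFF to 8.35, 7.93 and 7.92 in hSRY-ON, or 1.92 higher on the log2 scale (standard error 0.23, limma's adjusted p = 0.00116). Without background correction the change of Slit3 was 0.96. Slitrk5, a synaptic membrane protein gene, was above background in hSRY-ON hearts only and was at least 1.79-fold higher on the background-corrected scale (adjusted p = 0.00557 from limma). It passed the filter through those hearts alone, so its adjusted p-value is a description and not a test. Its log2 fold change was 0.41 without background correction and 0.71 with normexp and an offset of 50, against 1.32. Tpbg, the trophoblast glycoprotein gene, rose by 0.98 (standard error 0.15, adjusted p = 0.00292 from limma).

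Other markers moved in the same hearts. The counts of the short lists given here stand beside 13.9% of all tested genes that fell and 14.9% that rose. Of the 15 measured cardiac myocyte markers 6 fell (40.0%) and 1 rose (6.67%), and their summed normalized intensity, 277573 to 285045 over the hSRY-OFF hearts, was 235838 to 257699 with SRY, without overlap. In whole hearts, fewer myocytes and less RNA of a gene per myocyte cannot be told apart, and the part of this shift in the Lrtm1 and Lrrc39 decreases was not tested. Lrrc10, itself a myocyte gene, was higher in the same hearts. Of 7 tested ventricular markers 3 fell, 42.9%, and 1 rose, 14.3% (sums of 105873 to 108914 without SRY, 106472 to 111641 with it), and of 8 atrial markers 1 fell, 12.5%, and 3 rose, 37.5% (95891 to 97547 and 79584 to 100657). The ventricular marker that rose was Myh7, by 2.94 on the log2 scale, and its rise is part of the sum with SRY. Those that fell were Irx4, Irx3 and Hey2.

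Of 19 skeletal muscle markers on the array 9 were above background on no array, namely Myf5, Myf6, Myh1, Myh2, Myh4, Myod1, Pax7, Tnnc2 and Tnnt3, and 8 were tested. Among these 4 fell (50%) and 2 rose (25.0%), and the sum of 5319 to 6409 without SRY stood at 31242 to 33299 with it, most of it from Tnnt1, which rose by 3.51 (standard error 0.11, adjusted p = 1.18e-05 from limma). Those that fell were Tnni2, Myh8, Pvalb and Myog. Tnni1, about as bright as Tnnt1 without SRY (mean log2 values of 11.39 and 11.34), was at -0.05 and did not pass (adjusted p = 0.891 from limma). Of the called genes, Pvalb was above background in hSRY-OFF only, and Actn3, which rose, in hSRY-ON only. Each passed the filter through its brighter group alone, so these shares are only a description.

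Of 4 tested brown fat markers 2 rose, 50%, and none fell (sums of 1867 to 2639 and of 1101 to 3656), with Dio2 and Elovl3 above background on no array. At an unadjusted p-value under 0.05 in limma 3 were higher and 1 lower, where 5228 of the 12970 tested probes passed in either direction. The lower marker was Cidea, at -1.05 on the log2 scale without overlap of the groups (standard error 0.37, limma's adjusted p = 0.0691). Ucp1, the uncoupling protein gene that defines brown fat, was at normalized log2 values of 4.64, 5.03 and 8.88 in hSRY-OFF, where only replicate 3 was above background, and of 10.81, 8.80 and 9.94 in hSRY-ON, so that the groups overlapped. It was 3.67 higher on the log2 scale (standard error 1.07, limma's adjusted p = 0.0395). The call was lost without the filter (0.0778), with an intensity trend (0.116), and on leaving out any heart but hSRY-OFF replicate 3 (0.0526 to 0.115). Without hSRY-OFF replicate 3 the value was 5.07 (adjusted p = 0.00236). The part of brown fat in the values of the 5 genes was not tested.

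Of 3 tested neuronal markers 2 fell, 66.7%, and none rose (sums of 495 to 535 and of 259 to 299), none being higher at an unadjusted p-value under 0.05 in limma either, and Elavl4, Nefl, Prph, Snap25, Syt1 and Th were above background on no array. Dbh, among those that fell, was above background in hSRY-OFF only and passed the filter through that group alone, so this share is only a description. Endothelial markers had 3 of 7 lower (42.9%) and 1 higher (14.3%), with sums of 27755 to 29666 and of 24686 to 27255. The fibroblast markers had 1 of 7 higher, 14.3% (31550 to 33822 and 28844 to 32146), and erythroid markers had 2 of 6 lower, 33.3% (51120 to 63600 and 51697 to 56619). Their part in the values of the 5 genes was not tested.

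**Figure D5:**
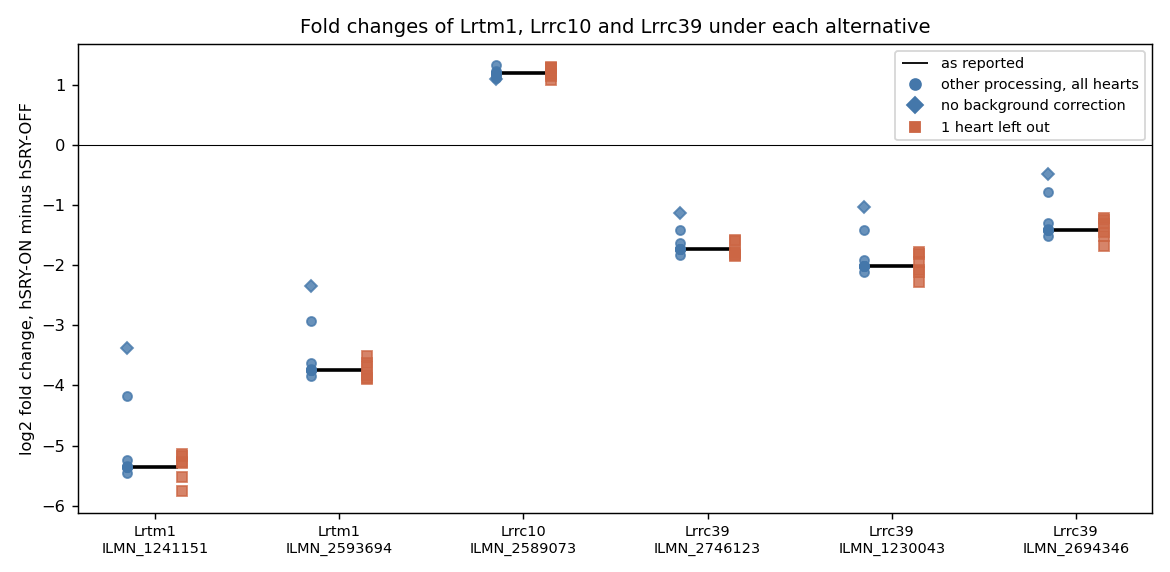
Log2 fold change, hSRY-ON minus hSRY-OFF (y axis), of the 6 probes of Lrtm1, Lrrc10 and Lrrc39 as reported (black bars), under other processing with all hearts (blue) and with 1 heart left out (orange). Every probe kept its sign, and leaving out the background correction (diamonds) brought the 5 negative values nearer to 0, to -3.38 and -2.35 for Lrtm1.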

How the data were processed

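Gene expression was measured in 6 hearts with MouseRef-8 BeadChip arrays. For every probe the authors deposited a raw bead intensity (neither normalized nor background-subtracted) and a detection p-value against the negative-control beads. The bead summary software is not given in the sources used here. The paper's methods name TCC and the processing notes name limma. No pair of arrays held identical values.

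With R 4.3.3 and limma 3.58.1, neqc (offset 16) estimated background from those p-values, then applied quantile normalization and the log2 transform. Probes with a detection p-value under 0.05 on at least 3 of the 6 arrays were fitted with lmFit and eBayes, group as the only term, two-sided, with Benjamini-Hochberg adjustment over 12970 probes. In simulated data these steps called 34 of 50 planted log2 changes of 1 in the right direction, and all 50 at each of 2, 4 and 5. The median fitted change was 0.89 to 0.961 of the planted one. In the simulation 20444 probes passed the filter, against 12970 here, so it does not match these arrays in full. Each list gene was given by its brightest tested probe. For a probe below background throughout 1 group, the fold is a lower bound against the lowest signal above background. The number of arrays limits the precision. Each array is 1 animal.

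The 5 genes, the lists of other Lrrc genes, transmembrane relatives and partners, and 9 lists of cell type markers were chosen with earlier results of these data known. Named genes were all probes of the 5 genes, the 5 genes most like Lrtm1, all partners and neighbours, and up to 3 called genes in each direction in the other 2 lists. Tnnt1 and Ucp1 were named, and their alternatives added, after their values were seen. Cidea and Tnni1 were also named after their values were seen, without alternatives. Neighbours came from RefSeq's GRCm38.p6 table and promoters from RefSeq. Replicate numbers were not used as pairs. Plots used matplotlib 3.10.9 (Python 3.11.15).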

Additional observations from a re-analysis of the deposited data

How the results depend on the processing

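The 6 probes of Lrtm1, Lrrc10 and Lrrc39 kept their direction and their side of the threshold in all 94 alternatives run for them, which were 10 other processings with all hearts (9 for the brighter Lrtm1 and the dimmest Lrrc39 probe, which are not above background on all 6 arrays) and 6 with a heart left out. With a heart left out the brighter Lrtm1 probe ranged from -5.76 to -5.14, the second from -3.90 to -3.51, Lrrc10 from 1.08 to 1.29, and the Lrrc39 probes from -1.85 to -1.59, from -2.28 to -1.78 and from -1.69 to -1.22. Leaving out the background correction moved the sizes of the Lrtm1 and Lrrc39 probes most, and Lrrc10 was at 1.09 to 1.32 under the other processings. Without the filter, Lrtm2 (-0.19, adjusted p = 0.29 from limma) and Lrrc2 (0.04, adjusted p = 0.874) did not pass, as probes at background.

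Of all tested probes 3567 passed, 1897 without normalization between arrays, and from 2206 (without hSRY-OFF replicate 1) to 3669 with a heart left out. It was 2255 without hSRY-ON replicate 1. Without normalization 38.5% of the calls were higher in hSRY-ON and the median log2 fold change was -0.12, and with scaling to the detected probes 65.7% were higher, against 50.1%. The fit without normalization gave a standard error of 0.30 to Lrtm1, Lrrc10, Lrrc39, Nkx2-5, Myh6, Dbt and Cacna2d3 alike. Whether these probes passed there thus followed the size of the log2 fold change alone. Of the other Lrrc genes the number higher, 0 here, was 2 without background correction, 1 with normexp and an offset of 50, 3 with scaling to the detected probes, and 0 to 1 with a heart left out. The number lower, 1 here, was 3 with scaling in the manner of TCC, 3 with detection on all 6 arrays, 2 with detection at 0.01, and 1 to 2 with a heart left out. Of the transmembrane relatives 3 to 6 were higher with a heart left out, and 2 were lower without the filter. Of the partners 1 was higher without normalization. Fgfr1 changed sign to -0.03 without normalization and -0.17 without hSRY-OFF replicate 2 (up to 0.34 with another heart left out), and Actn2 to -0.03 without normalization. The cause of these shifts was not tested.

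Deviations of same-numbered hearts from their group means correlated at -0.02, 0.04 and -0.07, so no strong shared deviation was seen. Whether same-numbered hearts were littermates or shared a batch was not tested. With the replicate block 2842 probes passed, and the log2 fold changes of the 6 probes were as without it (-5.36, -3.74, 1.20, -1.74, -2.01 and -1.41).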
